A study of Homo sapiens and Mus musculus with 61 samples.

Results

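The regions described here are stretches of the human genome that came down strongly with the control guide sgGal4 in K562 cells. They were chosen by the levels measured in sgGal4 replicates 1 and 2 and by the ratio of guide to sgGal4 levels. A region qualified if it stood in the top 2% of its table in sgGal4 replicate 1 and again in sgGal4 replicate 2. Overlapping hits were merged over 17 tables, which gave 221 candidates. Of these, 173 were kept because their median log2 ratio of guide over sgGal4, less the table median, was above -1, and 48 were removed. The 17 tables list 44682 merged regions in all. The members are named by the protein-coding gene with the nearest transcription start, which need not be the gene they lie in.

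The series used CAPTURE-ChIP-seq, in which an inactive Cas9 with a biotin tag is led to DNA by a single guide RNA (sgRNA) and pulled down on streptavidin beads. K562 is an established human leukaemia line with erythroid features. Of the 61 samples, 46 have columns in these tables, 42 with a targeting guide and 4 with sgGal4, and 15 were not analysed here. All 46 libraries came from the same line pulled down on streptavidin beads and differed by guide, and the labels name no clone, treatment or time. The guides were sgHS1 (2 libraries), sgHS2 (5), sgHS3 (3), sgHS4 (2), sgHS5 (3), sgHS1-5 (6), sg3'HS1 (2), sgHBB (1), sgHBG (4) and sgHBD-1kb (2). Guides named as second ones were sgHS1-sg2 (2), sgHS2-sg2 (1), sgHS3-sg2 (1), sgHS4-sg2 (2), sgHS5-sg2 (2), sgHBB-sg2 (2) and sgHBG-sg2 (2). The titles of the sgHBG-sg2 samples match the columns used for them, although another label of theirs points to the sgHBG table. The names refer to the beta-globin cluster, and the guide sequences are not used here.

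A pull-down on streptavidin also recovers DNA that the guide did not choose, and a control guide shows where such DNA collects. Such regions are commonly places of open chromatin, of repeated sequence or of extra gene copies, since each of these can raise read density whatever the guide. CTCF, a zinc-finger protein that binds insulators and loop anchors, makes one of the most accessible classes of site in most cell types. K562 cells carry extra copies of the fused BCR and ABL1 genes on rearranged pieces of chromosomes 22 and 9.

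Sequences are shown for 6 of the 10 members that stood in the top 2% in every table with the most sgGal4 reads. The 4 stretches of 60 bases below are given 5′ to 3′ in hg19 because they share a short element near the middle of their window. Capitals mark 12 letters at the centre of the known CTCF motif, CCA, 2 free letters, AG, 2 free letters and GGC, with all 8 named letters matching in ZBTB46 and PTPRC and 1 of them different in MRPL21 and CELSR2. They lie at chr20:62427644-62427703 (minus strand), chr1:198668721-198668780 (minus), chr11:68657743-68657802 (minus) and chr1:109806344-109806403 (plus). Among the 10, the PRAME window, not shown, also held all 8 letters. The CUL4A and FNDC9 windows, not shown, held no such element even with 1 letter different. With 1 letter allowed to differ, 47.5% of all listed windows held it.
ZBTB46: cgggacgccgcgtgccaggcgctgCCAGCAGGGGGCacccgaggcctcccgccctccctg
PTPRC: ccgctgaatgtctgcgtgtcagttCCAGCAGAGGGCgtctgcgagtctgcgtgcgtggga
MRPL21: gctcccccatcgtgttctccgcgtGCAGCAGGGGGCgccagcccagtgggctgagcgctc
CELSR2: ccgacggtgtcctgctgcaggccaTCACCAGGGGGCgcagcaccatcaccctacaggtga

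The whole 300-base windows of the members near TMEM106A (chr17:41400421-41400720) and ANKRD30BL (chr2:133026651-133026950) are shown on the plus strand of hg19, because these were high in most guide libraries as well and held no such element even with 1 letter different. Capitals mark CACGTG, the E-box letters bound by MYC and USF proteins, and AGATAA, the letters bound by GATA factors.
TMEM106A: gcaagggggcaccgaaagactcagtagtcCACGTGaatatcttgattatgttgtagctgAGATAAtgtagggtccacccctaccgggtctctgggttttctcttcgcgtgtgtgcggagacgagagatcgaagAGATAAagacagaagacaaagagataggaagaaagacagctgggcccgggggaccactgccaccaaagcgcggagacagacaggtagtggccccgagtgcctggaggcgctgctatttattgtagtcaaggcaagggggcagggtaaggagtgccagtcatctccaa
ANKRD30BL: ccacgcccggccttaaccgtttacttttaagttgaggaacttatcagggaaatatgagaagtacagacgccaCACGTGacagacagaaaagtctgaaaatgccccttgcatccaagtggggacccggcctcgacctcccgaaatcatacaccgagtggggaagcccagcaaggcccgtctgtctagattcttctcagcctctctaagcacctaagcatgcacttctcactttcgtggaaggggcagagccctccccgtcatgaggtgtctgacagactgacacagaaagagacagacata

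The deposited log2 levels turn back into whole numbers, taken here as reads, and each library is described by its listed reads, the sum over the regions of its table. Listed reads ran from 7127 to 432553 in the guide libraries. They ran from 41128 to 169968 in sgGal4 replicates 1 and 2 and from 6499 to 18647 in sgGal4 replicates 3 and 4, which had 25.8% to 40.7% of regions at 0 reads. The replicates that chose the members were thus the deeper pair, and in replicates 3 and 4 a single read moves a region by many ranks. A percentile below is the rank of a region's level in its column, from 0 to 100, with ties given their mean rank.

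In the sgGal4 libraries that chose them, members held a median of 22 reads in replicate 1 (17 to 255) and 40 in replicate 2 (30 to 463), which describes the choice and is no result. In replicate 3 the members held a median of 2 reads (0 to 108) and in replicate 4 a median of 2 (0 to 76). No read fell on 33 members in replicate 3 and on 25 in replicate 4, and 7 members had none in either. Over the tables, the median member stood at percentile 76.0 in replicate 3 and 75.9 in replicate 4. In the top 2% stood 37 members in replicate 3 and 36 in replicate 4, by the median over tables, and 20 in both. Of all rows of members, 16.9% lay in the top 2% of replicate 3, where 1.91% of all rows did, and 16.9% in that of replicate 4, where 1.8% did. The top 10% held 32.1% of them in replicate 3 and 29.5% in replicate 4, with 10.1% of all rows in each. The members were therefore above the middle of the other sgGal4 libraries as a set, and most single members were not at their top.

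The ratio limit used replicates 3 and 4 and the guide libraries, so the candidates, which replicates 1 and 2 alone chose, give the fairer count. Of the 221 candidates, 47 stood in the top 2% in replicate 3 and 43 in replicate 4, and the median percentiles were 77.5 and 75.9. The median candidate stood at percentile 81.7 in the guide libraries, with 26 candidates above 98 and 26 below 50. Candidates that the limit removed stood lower in the guides, at a median of 53.2, and higher in replicate 3, at 88.9. Guide and sgGal4 levels entered the limit, so neither value is a result. In replicate 4, which entered it too, the removed candidates and the members both stood at 75.9.

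Members were high in many guide libraries but by no means in all. The median percentile of the listed members in a library ran from 39.9 in sg3'HS1 replicate 1 to 97.8 in sgHS5 replicate 2, with a median of 87.1 over the 42 guide libraries, and it was above 90 in 15 of them. Libraries of sgHBD-1kb (41.2 and 46.1), sgHS2-sg2 (45.3) and sg3'HS1 (39.9 and 58.8) were the lowest. In 4 of these 5 libraries the median member fell below the middle of the table. The 6 libraries of sgHS1-5 spread from 61.0 to 97.5, so libraries of the same guide also differed. Over the 42, Spearman's rho of listed reads with the median percentile was 0.07. It is given as a description, since libraries of the same guide share a table. Listed reads also depend on how many regions a table holds, so the value cannot speak of sequencing depth.

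**Figure D1:**
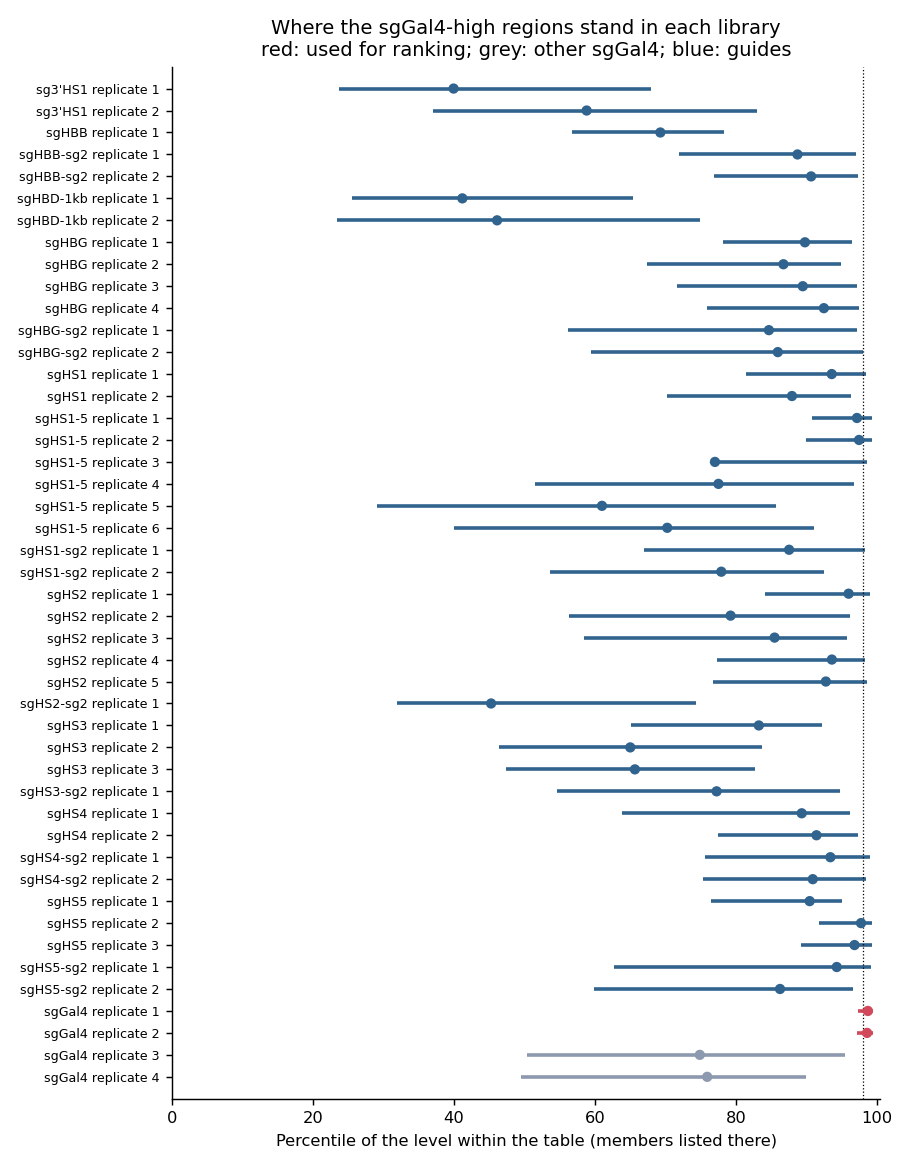
Percentile of the members' levels in each library (x axis, 0 to 100), with the median as a point and the quartiles as a line; for sgGal4, medians over the 17 tables of each of these. The dotted line is the 98th percentile used by the rule. The guide medians run from 39.9 to 97.8, and sgGal4 replicates 3 and 4 sit near 75.

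Of the 5854 member values in guide libraries, 18.7% lay in the top 2% of their column and 43.0% in the top 10%, where 1.97% and 10.3% of all rows did. The members' share of a library's listed reads was a median of 2.27 times their share of its rows. That figure was 0.835 in sgHBB replicate 1, the lowest, and 3.30 in sgHS2 replicate 1, the highest. In sgGal4 replicate 3 it ran from 1.90 to 3.17 over the tables and in replicate 4 from 2.18 to 3.35. Only 2 of the 122 members listed with all 42 guide libraries were in the top 10% of every one, the PRAME and ANKRD30BL members. Since the ratio limit drew on guide levels, these values describe the set and support nothing.

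Members differed in how often they came up. The rank rule was met by 36 members in all 17 tables, by 23 in 13 to 16, by 26 in 4 to 12, by 56 in 2 or 3 and by 32 in a single one. The recurrent 36 stood at a median guide percentile of 96.2 (quartiles 90.9 and 98.01), with 28 of them in the top 10% of at least 50% of their guide libraries. Those met in 2 or 3 tables stood at 79.1 (quartiles 66.9 and 90.2). Those met in 1 table stood at 90.6, but only 11 of those 32 were listed in all 17 tables, so a count of 1 can reflect absence. Of the 56 met in 2 or 3 tables, 36 were listed in all 17. Tables held 4217 to 16890 regions, so a top 2% was not the same number of regions in each. How far table length moved these counts was not tested. Low counts of tables and low guide signal therefore did not go together throughout.

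The PRAME member (chr22:22901523-22901866, overlapping a UTR exon of PRAME, which encodes a tumour antigen) held 53, 118, 7 and 14 reads in sgGal4 replicates 1 to 4. Per 10000 listed reads these came to 9.66, 12.2, 7.55 and 12.4, so the 4 control libraries were close to one another. In the guide libraries the same measure ran from 2.72 to 28.9 with a median of 8.18, and the percentile ran from 91.6 to 99.98. It was in the top 2% of 38 of the 42, and its lowest percentile was that in sgHBB replicate 1. Its log2 ratio over sgGal4, less the table median, ran from -0.89 in sgHBD-1kb to 1.36 in sgHS3-sg2.

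The ANKRD30BL member (chr2:133026637-133026950, intergenic, 107275 bp from the nearest coding start) held 52, 94, 24 and 34 reads in the 4 sgGal4 libraries. Per 10000 listed reads that was 10.1, 10.2, 25.9 and 38.2, so the shallow replicates were the higher ones. The guide libraries ran from 1.43 to 50.5 with a median of 10.6, and 35 of 42 had it in the top 2%. The TMEM106A member (chr17:41400405-41401050, intergenic) showed the same order, with 62, 98, 21 and 22 reads and 7.86, 9.30, 20.2 and 20.3 per 10000. It was in the top 2% of 31 guide libraries, and its lowest guide percentile was 83.7, in sgHS3 replicate 2.

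The CUL4A member (chr13:113866108-113866436, in an intron of CUL4A, a ubiquitin ligase scaffold) had the most sgGal4 reads among the 36 recurrent ones, 86, 182, 17 and 8. Per 10000 listed reads the sgGal4 libraries gave 16.6, 19.6, 17.3 and 10.1. The guide libraries ran from 0.095 in sgHS1-5 replicate 5 to 24.4 in sgHS1 replicate 1, and 29 of 42 had it in the top 2%. In sgHBD-1kb its ratio was -3.63, the lowest of its 17 tables. This member was thus high in every control library and low in a minority of guide libraries.

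Among the other recurrent members, ZBTB46 (chr20:62427502-62427854), in an intron of that zinc-finger gene, held 39, 79, 1 and 4 reads in the sgGal4 libraries. CELSR2 (chr1:109806237-109806607), in a coding exon of that adhesion receptor, held 26, 72, 3 and 1. In both the first pair of replicates stood above the second pair in reads, as the listed reads of the libraries also did. MRPL21 (chr11:68657614-68657955) held 41, 58, 3 and 2, PTPRC (chr1:198668612-198668943), in a coding exon of the gene of the leukocyte phosphatase CD45, held 27, 70, 2 and 7, and FNDC9 (chr5:156751244-156751583), in an intron of CYFIP2, held 57, 62, 6 and 1. Median guide percentiles of these 5 ran from 83.6 for MRPL21 to 98.02 for ZBTB46.

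**Figure D2:**
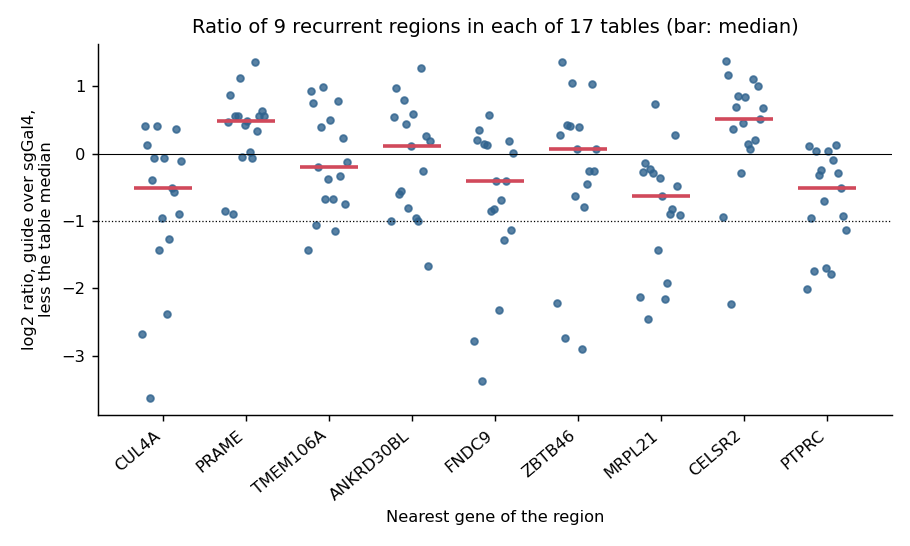
log2 ratio of guide over sgGal4, less the table median (y axis), for 9 of the 10 members with the most recurrence and sgGal4 reads, 1 point for each of the 17 tables; the bar is the median, the dotted line the limit of -1. Medians run from -0.63 (MRPL21) to 0.52 (CELSR2), and single tables fall to -3.63 (CUL4A).

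The members with the highest median ratios were MRPL40 (2.29, 1 table), CRKL (1.14, 6 tables) and NUP214 (1.09, 1 table). MRPL40 and CRKL lie on chromosome 22, at 77 bp and 139 bp from the start of those genes, which encode a mitochondrial ribosomal protein and a signalling adaptor that BCR-ABL1 phosphorylates. NUP214, which encodes a nuclear pore protein, lies on chromosome 9. Just inside the limit were NHERF1 (-0.999), LRRC20 (-0.99) and RSRP1 (-0.96). Just outside were GGTLC2 (-1.004), USP25 (-1.01) and EEF1A1 (-1.03). The values on both sides of the limit ran together, with no gap at -1.

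EEF1A1 encodes a translation elongation factor, and its promoter drives many expression vectors, and no vector of this series is described here. Its removed region (chr6:74229926-74230604) held 30, 51, 263 and 52 reads in sgGal4 replicates 1 to 4, so replicate 3 was the highest although it was shallow. Per 10000 listed reads the replicates gave 4.34, 4.79, 296 and 63.9. The guide libraries ran from 0.889 to 432. The replicates that ranked the regions thus gave the lower control values. Its ratio ran from -4.23 in sgHS5 to 1.17 in sgHS3.

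The members with the largest spread over guide libraries were DNAJB6, EP400, BCHE, MAD1L1 and ACTR3, with an SD of percentile from 30.5 to 40.1. EP400, in an intron of that chromatin remodeller gene, ran from percentile 5.61 to 99.5. BCHE (420494 bp from the start of that cholinesterase gene) reached 98.6 and fell to 4.31. MAD1L1 (in an intron of that spindle checkpoint gene) reached 98.7 and fell to 8.32. DNAJB6, in an intron of that chaperone gene, was listed with 6 guide libraries. ACTR3 was listed with 42. It lay 89002 bp from the start of that actin-related gene and 31 bp from a start of the noncoding RNA gene LINC01191. All 5 had 0 to 3 reads in sgGal4 replicates 3 and 4.

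Position was not used by the rule. Within 1 kb of a protein-coding transcription start lay 42 members (24.3%), against 25.9% of all listed regions and 6 of the 48 removed ones. Members stood in intergenic sequence in 52.0% of cases, in introns in 31.8%, in coding exons in 12.1% and in UTR exons in 4.05%. Among all listed regions the shares were 47.9%, 39.5%, 4.11% and 8.53%. The members thus met starts about as often as any listed region and coding exons more often, with no test made. Of the 36 members that recurred in all tables only 3 lay within 1 kb of a start.

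Most members held no stretch that occurred exactly elsewhere in the genome build, a search that leaves copies with differences uncounted. Stretches of 32 letters were taken from every window at steps of 10 and looked up on both strands of the genome. At least 1 such stretch occurred elsewhere in 28 members (16.2%) and in 15.1% of all listed regions, and 1.73% and 1.81% had 50% or more of their stretches elsewhere. The authors kept reads that aligned to 1 place only, per the labels' protocols, so repeated stretches could hold fewer reads than were pulled down. Members with a repeated stretch stood at a median guide percentile of 94.0 and the other 145 at 85.3. In sgGal4 replicates 3 and 4 those with a repeated stretch stood at 91.5 and 98.3, and the others at 74.9 and 75.9. All these levels entered the ratio limit, so the values describe the 28 and 145 members and are no result about repeats. Tandem repeats of 20 bases or more were found in 5 members (2.89%) and in 1.21% of listed regions.

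The windows of members were richer in GC than those listed, with a median of 57.0% (quartiles 49.7% and 64.0%) against 51.7% in all listed windows and 50% in the removed ones. CpG dinucleotides came at a median of 0.499 of the number expected from base content, against 0.312 over all listed windows. A ratio above 0.6, as in CpG islands, was found in 40.5% of members and 27.7% of listed windows. Members therefore leaned to CpG-rich sequence although they lay near starts no more often.

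Short motifs were counted on both strands of the 300-base windows. CCGGAAG, bound by ETS factors, was present in 9.83% of members and 5.66% of listed windows, and GGGCGG, bound by SP factors, in 30.6% and 26.8%. AGATAA, the GATA letters, was found in 10.98% and 17.3%, and TGAGTCA, bound by AP-1 and NFE2, in 4.05% and 8.97%. These shares were not tested against one another, and members were richer in GC. CCAAT stood in 28.3% and 30.6%, CACGTG in 3.47% and 5.60%, GCGCATG in 4.05% and 2.54% and TCTCGCG in 2.89% and 1.74%. In RefSeq promoter windows of the same length (35116 windows of GRCh38.p14) GGGCGG was found in 45.0% and CCGGAAG in 10.3%.

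The letters of the CTCF core were found in members more often than in other listed windows. The letters CCA, AG and GGC with 2 free letters between each, searched on both strands, were found in 57 of the 173 members (32.9%), in 14 of the 48 removed regions (29.2%), in 12.01% of all listed windows and in 2.41% of the promoter windows. This motif was chosen after the sequences had been seen, so its count is a description. With 1 named letter allowed to differ the shares were 78.0% of members and 47.5% of listed windows, and with a G required after AG 20.2% and 6.19%. Among windows of 50% to 65% GC the share was 37.8% of 90 members and 14.6% of 16390 listed windows. A match gives the letters only, not a bound site.

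The core lay near the middle of the windows. Its median distance from the centre was 36 bp in members and 33 bp in listed windows, and 43 of the 57 members had it within 50 bp, a span that holds 34.9% of the possible positions. In listed windows 67.6% had it there. Members with the core stood at a median guide percentile of 83.9 and those without at 88.1, which is a description, since guide levels entered the ratio limit. It was held by 8 of the 36 members met in all tables (22.2%) and by 23 of the 56 met in 2 or 3 (41.1%).

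**Figure D3:**
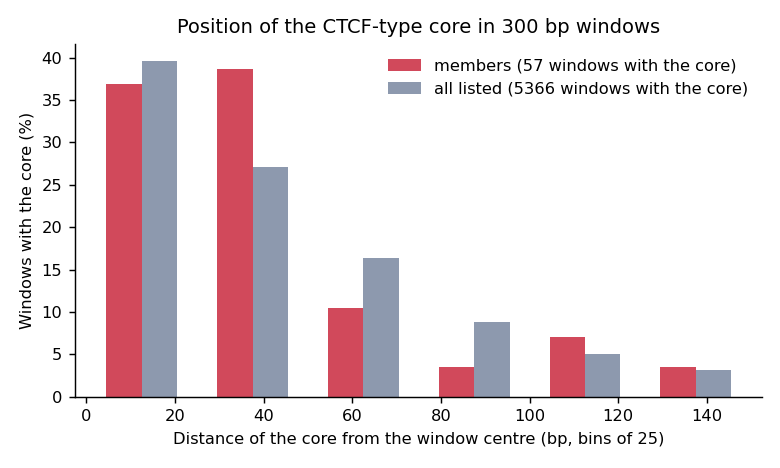
Distance of the core nearest the window centre (x axis, bp, bins of 25) as a percent of the windows that hold it (y axis), for members and for all listed windows. In both the first 2 bins hold most of the windows, 36.8% and 38.6% of members.

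Across all listed regions the core share rose with the reads of sgGal4 replicates 1 and 2. Of 10 equal bins of regions by those reads, the lowest (0 reads) held the core in 4.21% of windows, bin 5 in 10.1% and the highest (25 to 718 reads) in 23.4%. The share within 1 kb of a start did not follow that order, with 16.8%, 29.1% and 22.6% in the same bins. Among rows that overlapped no candidate, the top 2% of sgGal4 replicate 1 held the core in a median of 27.0% over the tables and that of replicate 2 in 33.3%, where whole tables held it in a median of 14.9%. For replicates 3 and 4 the medians were 13.3% and 12.96%, below that of the whole tables. In their top rows the core was thus commoner than in whole tables for the replicates that chose the members and, by the median, not for the other pair.

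The guide libraries were mixed. Their top 2%, candidates again left out, held the core in 2.65% to 40.9% of rows with a median of 13.7%, and in 13 of 42 libraries the share was above that of the whole table. Measured by reads, rows with the core held 1.29 times the mean of the other rows in sgGal4 replicate 1 and 1.33 times in replicate 2, as medians over tables, and more than the others in 17 of 17 tables in each. The same ratio was 1.04 in replicate 3, above 1 in 13 of 17 tables, and 1.01 in replicate 4, above 1 in 11 of 17. In guide libraries it ran from 0.566 in sgHBB replicate 1 to 1.47 in sgHS2 replicate 1, above 1 in 25 of 42. Tables share regions and the sgGal4 libraries, so counts over tables are not independent, and whether depth or preparation moves with this difference was not tested.

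**Figure D4:**
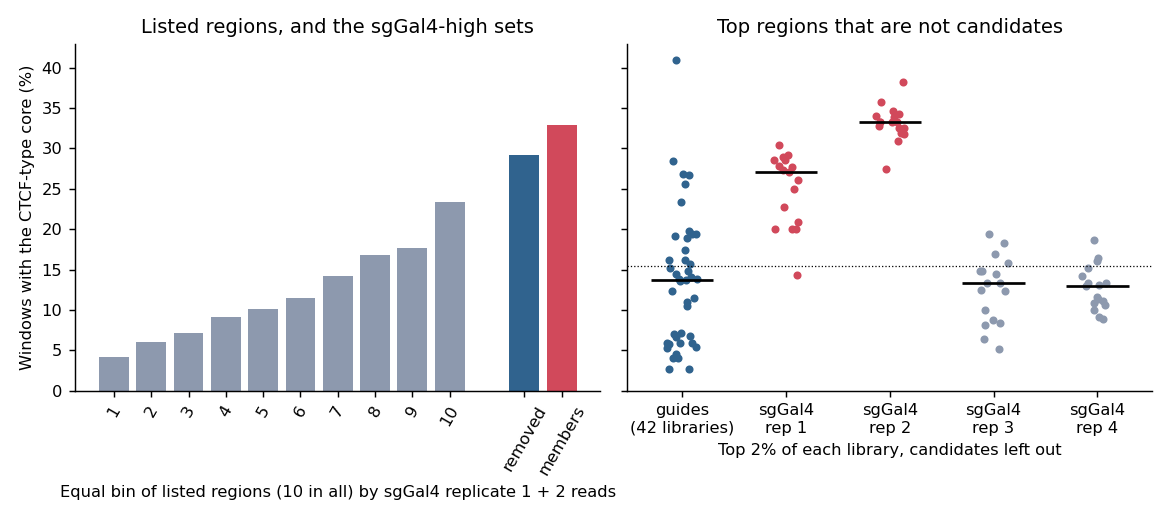
Percent of windows with the core (y axes). Left, listed regions in 10 equal bins of sgGal4 replicate 1 plus 2 reads, with the removed regions and the members; the bins rise from 4.21% to 23.4% and members reach 32.9%. Right, the top 2% of each guide library and of each sgGal4 replicate in each table, candidates left out; bars are medians and the dotted line is the median of the whole tables over these columns.

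Members were unevenly placed on the chromosomes. Chromosome 22 held 26 of the 173 (15.03%) and 1.94% of listed regions, chromosome 6 held 20 (11.6% and 6.25%) and chromosome 1 held 28 (16.2% and 11.6%). Chromosome 12 held 2 (1.16% and 5.20%). On chromosome 22, 24 of the 26 members lay between 19 and 24 Mb, bounds drawn after the positions were seen, from chr22:19132195 to chr22:23470905. That stretch held 13.9% of members and 0.327% of listed regions.

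**Figure D5:**
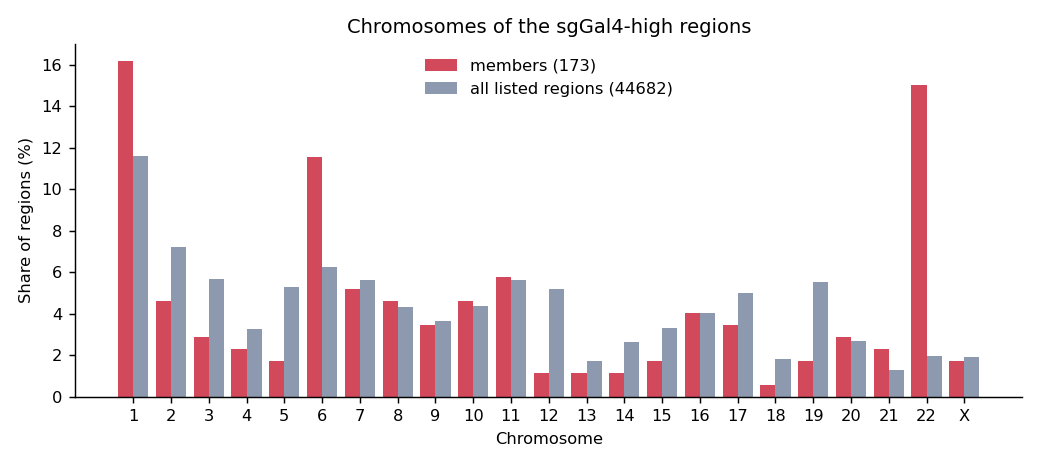
Share of members and of all listed regions (y axis, percent) on each chromosome (x axis). Chromosome 22 holds 15.03% of members and 1.94% of listed regions.

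The stretch of chromosome 22 ends at the BCR side and holds the immunoglobulin lambda locus, with VPREB1 and IGLL5. Its 24 members stood at a median guide percentile of 97.4 and the remaining members at 83.8, with median ratios of 0.07 and -0.40. In the top 10% of at least 50% of their guide libraries stood 21 of the 24. Guide levels and the ratio entered the choice of members, so these values describe the set and are no result. Rows of the stretch that overlapped no candidate, 15 to 31 in a table, were high too. They held a median of 1.82 times the mean reads of other rows over the guide libraries and more than them in 42 of 42. The lowest such value was 1.36, and the highest, 21.0, was that of sgHBB replicate 1. In sgHBB replicate 1 the median row of the stretch stood at percentile 71.3. In sgGal4 replicates 1 to 4 the medians over tables were 1.31, 1.46, 2.59 and 2.25, with 1 of the 17 tables below 1 in replicate 1 (0.956, sgHBG). By rank, the median row of the stretch was above percentile 50 in 40 of the 42 guide libraries. Mean reads there were thus raised beyond the members in most control and guide libraries; copy number was not measured and its part in the result was not tested.

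Within 1 Mb of BCR lay 10 members (5.78%, against 0.139% of listed regions) and 1 removed region. The PRAME member, the VPREB1 member at chr22:22549713-22550068 (30, 46, 7 and 2 sgGal4 reads) and the IGLL5 member at chr22:23219665-23219976 (30, 50, 0 and 7) met the rank rule in 17, 16 and 17 tables. The other 7 were met in 1 or 2 tables and had median guide percentiles from 84.0 to 97.8. Within 1 Mb of ABL1 on chromosome 9 lay 3 members (1.73%, against 0.112%), USP20, LAMC3 and NUP214, and 1 removed region. LAMC3, in an intron of that laminin gene, held 23, 91, 10 and 9 sgGal4 reads and USP20, in an intron of that ubiquitin protease gene, 27, 38, 3 and 0.

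Of the lists of genes looked at, most had no member within 10 kb of a start. Genes of the globin list (0 members, 14 listed regions), the ribosomal protein list (0 and 156), the small RNA list (0 and 16) and the biotin and carboxylase list (0 and 37) were not met. With 173 members among 44682 listed regions, lists this small would hold few or none, so nothing is read from these counts. Among the genes whose promoters serve in vectors (0 members, 19 listed regions), EEF1A1 was met, by the removed region only. Of 15 erythroid regulators (39 listed regions, 0.0873% of all), BACH1, a transcription repressor that haem releases from DNA, had a member (chr21:30693586-30693916) in a coding exon. It held 32, 58, 2 and 2 sgGal4 reads and met the rank rule in 17 tables, with guide percentiles from 5.61 to 99.9 and a median of 96.3. Of the histone genes (51 listed regions, 0.114% of all), H3C1 had a member (chr6:26020679-26021034) with 22, 39, 2 and 2 reads, in 3 tables.

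Guide and sgGal4 libraries were compared in each table with limma and Benjamini-Hochberg adjustment over all its rows, a row being called at an adjusted p under 0.05 and a log2 difference of at least 1. The rule used this contrast, so the counts are given beside those of all rows and nothing is read from them. Of the 1303 rows of members, 1 was called higher (0.0767%, with 1.66% of all 143198 rows) and 29 lower (2.23%, with 11.2% of all rows). The higher one was INTS7 in sgHBD-1kb, with a log2 difference of 3.37 (limma adjusted p = 0.0116), named after its value was seen. In sgHBD-1kb 9.45% of all rows were called higher. Of the lower ones 17 were in sgHBD-1kb, where 18.7% of all rows were called lower, 4 in sgHBB (37% of all rows), 3 in sgHS2-sg2 (13.5%), 2 each in sgHBB-sg2 (29%) and sgHS3-sg2 (31.1%) and 1 in sgHBG-sg2 (22.4%). The tables of sgHBB, sgHS2-sg2 and sgHS3-sg2 hold 1 guide library each, so their 9 calls assume that this library varied as the sgGal4 libraries did. None of the member rows carried an on-target or off-target tag in the authors' deposited tables. Without sgGal4 replicate 1 the lower calls numbered 9, without replicate 2 they numbered 14 and without guide replicate 1, with the 3 tables of 1 guide library kept as they were, they numbered 9. They rose to 109 on recovered reads, 89 with an intensity trend, 51 without the regions of lowest mean level, 104 with the replicate number as a block and 232 without sgGal4 replicates 3 and 4. Without guide replicate 1 or 2, 0 rows were called higher. The labels do not say that libraries came from separate cultures, so these p-values speak only of how libraries varied, which can be technical variation.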

How the data were processed

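CAPTURE-ChIP-seq libraries of K562 cells were analysed from 17 tables of 300 bp regions, 4217 to 16890 a table. The submitters' processing notes name Bowtie 1.0.0, Picard and the hg19 build, and the labels' protocols say that reads with 1 place in the genome were kept. Neither names a caller or a way of normalising. What the authors deposited are log2 values for each library, on a scale of its own in each table and with no unit in the headers. In every column 100% of values became whole numbers (within 0.01) on a line in log2 of whole numbers, and these less 1 are called reads. The ratio is the log2 of mean linear guide over mean linear sgGal4 level, less the table median, and it matched the authors' column before that step within 1.39e-08.

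The members and lists were chosen with earlier results of these data known. Table ratios of a member were averaged over its top rows and their median taken over tables. The window of a member is its listed window with the most reads in sgGal4 replicates 1 and 2. Named were the 10 members top in most tables (ties by those reads), the 3 highest and 3 lowest median ratios, the 3 regions on each side of -1, the 5 with the largest SD of percentile over guide libraries, and members near the lists; 1 of the 10 is not reported here. Guide and sgGal4 libraries were compared with limma 3.58.1 (R 4.3.3), tested on simulated data. Gene positions come from GENCODE 44 on GRCh37, whose main chromosomes share hg19 coordinates, and promoters from RefSeq windows of GRCh38.p14. Alternatives covered the ranks, the ratio, merging, single libraries, distances and motif letters.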

Additional observations from a re-analysis of the deposited data

Results flagged for a closer look

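Libraries were compared in 111 groups of 4 to 10. A library was listed here if its gap to the nearest other one took up most of the range of the group. Chance gives about 1 in 20, so several of the listings below can be expected by chance and nothing is read from them. Values are reads per 10000 listed reads. The EEF1A1 region, which the ratio limit removed, stood at 432 in sgHS2 replicate 2, where the other sgHS2 libraries ran from 15.4 to 33.6, and at 58.2 in sgHBG replicate 2, where the others ran from 10.7 to 13.1. The NHERF1 member stood at 1.43 in sgHS1-5 replicate 3 (others 0.489 to 0.747) and the MAD1L1 member at 1.64 in sgHBG replicate 1 (others 2.71 to 2.80). The IGLL5 member at chr22:23219665-23219976 stood at 2.81 in sgHS2 replicate 2, below the others at 7.95 to 8.64. With 7127 listed reads in sgHS2 replicate 2 and 20918 in sgHS1-5 replicate 3, the IGLL5 and NHERF1 values rest on few reads. Among the 4 sgGal4 libraries, the VPREB1 member at chr22:22697254-22697553 stood at 1.65 in replicate 4 (others 3.83 to 4.13), which rests on 2 reads. The PRAME member at chr22:22918803-22919102 stood at 3.75 in replicate 2 (others 4.58 to 4.72) and the LAMC3 member at 4.54 in replicate 1 (others 9.76 to 10.1).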

How the results depend on the processing

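The 173 members became 94 with the top 1%, 405 with the top 5% and 107 with a ratio above -0.5. Leaving out single sgGal4 libraries gave 140 to 390: 359 without replicate 1 and 390 without replicate 2, where 1 library then did the ranking. Without sgGal4 replicates 3 and 4, an alternative added after seeing the data, 71 were kept, 68 of them overlapping members. No other alternative moved the number of members by over 1.5 times. The 1 row called higher became 2 on recovered reads scaled to library size, 3 with an intensity trend, 2 without the regions of lowest mean level, 4 without sgGal4 replicates 3 and 4 and 0 to 1 without single guide replicates. The 29 lower rows became 109, 89, 51 and 232 under the same 4 settings, 9 to 38 without single sgGal4 libraries and 9 to 29 without single guide replicates. With the replicate number as a block 104 rows were lower and 1 higher. Deviations of same-numbered libraries from the means of their groups correlated at -0.25 to 0.22, above 0.1 in 5 of 36 pairs. In a table of 2 guide libraries the 2 deviations mirror each other, so these values cannot decide whether the numbers pair libraries. The share with the CTCF core, all of whose alternatives were chosen after seeing the data, was 78.0% with 1 letter free and 20.2% with the stricter letters. Starts, GC and the percentiles in sgGal4 replicates 3 and 4 moved by less than 1.5 times or 1 SD. Of 259 alternative values of named median ratios, 236 moved by less than 1 SD over tables. At 6499 to 18647 listed reads, replicates 3 and 4 limit what can be said of single members.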

Other observations

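The member with the most reads was not among the 10 most recurrent ones. Nearest to ZNF337 by coding start (chr20:26188736-26189050), it was listed in 8 tables and held 255, 463, 108 and 76 reads in sgGal4 replicates 1 to 4. It stood in the top 2% of all 22 guide libraries it was listed with, and 25.9% of its 32-letter stretches occurred elsewhere in the genome. It was chosen after its values were seen.

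Near ANKRD30BL, 3 members lay between chr2:133019987 and chr2:133029835, and 2 removed regions lay among them. The member at chr2:133019987-133020323 held 26, 62, 16 and 19 sgGal4 reads, with 70.4% of its stretches found elsewhere, and that at chr2:133029536-133029835 held 21, 73, 13 and 25. Of all members, 155 had no other within 50 kb and 18 fell into 8 such groups, 5 of them on chromosome 22.

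The lowest median guide percentiles were those of MEST (37.1), an imprinted gene, and TAL1 (39.8), the gene of an erythroid transcription factor, whose member overlaps a coding exon of a neighbour. MEST held 19, 32, 0 and 1 sgGal4 reads and TAL1 20, 31, 0 and 1. These, with 4 other members below percentile 50, were high in sgGal4 replicates 1 and 2 and in few other libraries.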
